A study of Mus musculus with 4 samples.

Results

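The Ifit and Ifitm genes encode 2 families of antiviral proteins, and 9 of the 32285 genes in the count matrix were taken by name: Ifit1, Ifit2, Ifit3, Ifit3b and Ifit1bl1 (5 Ifit members), and Ifitm1, Ifitm2, Ifitm3 and Ifitm6 (4 Ifitm members). They were given as a list of names, with no threshold on a measured value. They were described across the 17 cell types named by the authors and the 4 samples, and the Ifit members were compared with the Ifitm members. Ifitm1 and Ifitm3, of the same family, moved apart between samples. In macrophages, Ifitm3 and the 5 Ifit members were higher in the therapy-naive sample (NTT) than in each of the 3 resistant samples. TAM_H2Ab1, an Ifit-rich type of tumour-associated macrophage, was 62.3% of NTT macrophages and 0.936% of those of the resistant sample RTT. Within TAM_H2Ab1 the summed Ifit log2 ratio of NTT over RTT was 0.31. Over all macrophages Ifitm1 was 4.06-fold lower in NTT than in RTT, but lay between the other resistant samples, and it was 2.14-fold lower within TAM_Spp1, another such type and rich in Ifitm1.

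IFIT proteins are made in the cytoplasm after interferon reaches a cell, bind foreign RNA and restrain its translation. IFITM proteins sit in the plasma and endosomal membranes and hinder the fusion of viral and cellular membranes. Type I interferons act through Ifnar1 and Ifnar2, and the transcription factor complex they activate, which includes Stat2 and Irf9, binds the interferon-stimulated response element (ISRE). Interferon-gamma acts through a receptor that includes Ifngr1, and many of its target genes carry the gamma-activated site (GAS). In tumours, transcripts of both families are widely read as markers of interferon-exposed myeloid cells, and Ifitm genes are also expressed without interferon in many cell types.

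All 4 samples were CD45+ live cells sorted from YUMM1.7 melanomas, which carry Braf V600E, lack Cdkn2a, express ovalbumin (OVA), and were grown in Rag2-/- mice, which make no T or B cells of their own. Mice were 6 to 12 weeks old and received OT-1 CD8+ T cells, which recognise OVA, on day 7, and tumours were isolated on day 10, 72 h later. NTT tumours came from a line naive to targeted therapy. RTT tumours came from a line that had become resistant to a BRAF inhibitor (dabrafenib). RTT_ROSA26 tumours came from resistant cells with a control guide against Rosa26, and RTT_PTGS12KO tumours from resistant cells in which Ptgs1 and Ptgs2, the cyclooxygenase genes, were knocked out. The knockout was made in the cancer cells, which a CD45 sort is meant to remove, and it was not checked here. Some cells without CD45 may have remained, since the authors' Myofibrobl cells (6 in NTT, 249 in RTT, 59 of RTT_ROSA26 and 37 of RTT_PTGS12KO) scored highest on a list of fibroblast or tumour cell genes. Each group rests on 1 cell line and 1 sample, and the labels describe 1 tumour per condition whereas the figure legends describe pooled tumours. Since a group is 1 sample, differences could not be tested, and the 95% intervals given here are those of the UMI counts and cover counting error only.

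The matrix held 33368 cells, with 6836 to 10296 cells and 69332486 to 146829369 UMIs per sample. The median depth per cell was 7292 UMIs in NTT and 12219 to 13280 UMIs in the resistant samples. The samples were tagged, pooled and loaded 3 times, so any free RNA of a load reached the droplets of all 4. Of 33270 distinct barcodes, 98 occurred in more than 1 load and 0 were used by 2 samples of the same load. Of the 17 names, 16 scored highest on their own marker list and Macro did not, so Macro was left out of the macrophage class. Macrophages here are the TAM types (tumour-associated macrophages) and Ctsk_Macro, and monocytes are the Monocyte types and Infl_Mono. A level is given in CPM (counts per 1e6, the UMIs of the gene scaled to 1e6 UMIs of the same cells). Since the 3′ end of each transcript is counted, CPM was not divided by gene length.

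Both families are clusters of neighbouring genes in the mouse genome (GRCm38, GENCODE vM21). The 5 Ifit members lie within 99.3 kb on chromosome 19, from 34550694 to 34650009, in the order Ifit2, Ifit3, Ifit1bl1, Ifit3b, Ifit1, with Ifit1bl1 alone on the minus strand. The 4 Ifitm members lie within 63.1 kb on chromosome 7, from 140954837 to 141017924, in the order Ifitm2, Ifitm1, Ifitm3, Ifitm6, with Ifitm1 alone on the plus strand. All 9 are protein coding and none overlapped another gene named Ifit or Ifitm, while overlap with other annotated genes was not checked. Of the 411 windows of 90 bases in the last 500 bases of each transcript, 6.57% of those of Ifit3 were identical to Ifit3b and 26.5% of those of Ifitm2 were identical to 3 gene models (Gm11951, Gm45717 and Gm8865). Counts of Ifit3, Ifit3b and Ifitm2 are therefore uncertain where reads fell there, while the other 6 members shared none of these windows.

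The promoters of Ifit1, Ifit3, Ifitm3 and Ifitm1 are shown because in macrophages the first 3 genes and Ifitm1 moved in opposite directions for NTT over RTT and for RTT_PTGS12KO over RTT_ROSA26, though not for RTT_ROSA26 over RTT, where all 4 were lower or near 0. Ifit2 moved as Ifit1 and Ifit3 did, and its promoter windows, which held no ISRE core, are not printed. Each is the RefSeq window (GRCm38.p6) from 250 bases before to 50 bases after the annotated start, 5′ to 3′ on the strand of the gene, and capitals mark matches to the ISRE core, GAAA then any 2 bases then GAAA, on either strand. The windows are chr19:34640639-34640938 on the plus strand for Ifit1, chr19:34583279-34583578 on the plus strand for Ifit3, chr7:141010695-141010994 on the minus strand for Ifitm3, and chr7:140967826-140968125 on the plus strand for Ifitm1.
Ifit1: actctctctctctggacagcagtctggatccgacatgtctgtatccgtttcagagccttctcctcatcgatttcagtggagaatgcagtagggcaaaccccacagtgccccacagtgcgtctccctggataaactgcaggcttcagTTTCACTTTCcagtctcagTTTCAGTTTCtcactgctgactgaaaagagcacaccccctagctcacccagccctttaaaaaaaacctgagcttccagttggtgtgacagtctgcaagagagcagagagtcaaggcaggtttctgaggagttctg
Ifit3: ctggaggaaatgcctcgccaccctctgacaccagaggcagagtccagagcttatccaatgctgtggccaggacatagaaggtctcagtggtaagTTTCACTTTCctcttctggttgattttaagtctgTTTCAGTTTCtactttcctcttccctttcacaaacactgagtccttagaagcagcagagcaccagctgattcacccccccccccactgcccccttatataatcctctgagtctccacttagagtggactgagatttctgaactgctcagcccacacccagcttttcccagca
Ifitm3: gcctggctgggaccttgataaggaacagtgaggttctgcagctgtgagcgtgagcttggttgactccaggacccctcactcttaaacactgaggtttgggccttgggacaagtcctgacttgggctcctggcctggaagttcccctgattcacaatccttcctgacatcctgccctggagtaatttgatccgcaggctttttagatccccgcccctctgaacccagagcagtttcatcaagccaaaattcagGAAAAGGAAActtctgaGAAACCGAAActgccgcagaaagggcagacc
Ifitm1: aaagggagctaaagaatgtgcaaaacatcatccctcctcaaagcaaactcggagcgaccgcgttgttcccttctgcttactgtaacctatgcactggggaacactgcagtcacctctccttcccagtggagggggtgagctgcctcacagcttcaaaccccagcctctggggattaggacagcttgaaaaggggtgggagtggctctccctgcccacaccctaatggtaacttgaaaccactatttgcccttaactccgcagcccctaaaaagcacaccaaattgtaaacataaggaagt

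The ISRE core occurred in 3.44% of 32851 promoter windows of this length, the GAS letters TTCNNNGAA in 8.3%, and the cyclic AMP response element TGACGTCA in 1.79%. Ifit1 held 2 ISRE cores, 104 and 85 bases before the start, and Ifit3 held 2, 156 and 122 bases before it. Ifitm3 held 2 ISRE cores, 2 and 19 bases after the start, and 1 GAS match that overlaps the second. Ifitm1 held none of the 3 motifs in its window. The GENCODE models of Ifitm1 and Ifitm6 begin farther upstream than these RefSeq windows, and those starts were not searched. Among the members not printed, Ifit3b held 2 ISRE cores, Ifit1bl1 held 1 in each of 2 annotated windows and Ifitm2 held 1, whereas Ifitm6 held no ISRE core and 1 GAS match. Ifit2 held no ISRE core in either of its 2 annotated windows, and 1 of them held a GAS match. The longest run of identical bases between promoters was 169 for Ifit3 and Ifit3b, 13 for Ifit3 and Ifit1, and 8 for Ifitm1 and Ifitm3. A match is a description of letters and no site was measured here.

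The families differed in which cells carried them. The summed Ifit level was highest in Infl_Mono, with a median of 1139.7 CPM over the 4 samples (842 to 1853), and this range did not overlap that of neutrophils, the next in order (429 CPM, 187 to 616). TAM_H2Ab1 followed at 251 CPM (179 to 312, 3 samples), a range that overlapped those of neutrophils and Monocyte_3. Above mast cells, which held 0 Ifit UMIs, the order ended with TAM_Spp1 at 10.8 CPM (7.17 to 51.6). By median the single members kept the same leader, with levels in Infl_Mono of 395 CPM for Ifit1, 281 CPM for Ifit2, 357 CPM for Ifit3, 49.2 CPM for Ifit3b and 86.2 CPM for Ifit1bl1. For Ifit3b the ranges of Infl_Mono and neutrophils overlapped, and neutrophils held more of it in NTT (38.7 against 35.8 CPM) and RTT_PTGS12KO (52.1 against 19.6 CPM). The authors named cell types from clusters in which these genes took part, so the levels by cell type are descriptions.

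Ifitm1 had a different order. It was highest in type 2 conventional dendritic cells (cDC2), at 10314 CPM (8092 to 12011), and the lowest cDC2 sample lay above every sample of DC3, the next cell type (3189 CPM, 2749 to 3629). TAM_Spp1 came next at 2416 CPM (754 to 5444), although this type had the lowest Ifit level of any except mast cells. The ranges of most lower neighbours overlapped, down to Ctsk_Macro at 107 CPM. Infl_Mono, the Ifit leader, held 605 CPM of Ifitm1 (560.1 to 2598). Ifitm3 was high in all monocytes, with 6293 CPM in Infl_Mono (5081 to 7089), 5013 CPM in Monocyte_3 and 4769 CPM in Monocyte_1 (3912 to 5281), and these 3 neighbours overlapped. It was lowest in CD8+ T cells at 374 CPM and in the 1 mast cell sample with at least 20 cells at 164 CPM.

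The remaining Ifitm members were measured at low levels. By median over samples, Ifitm2 ranged from 4.18 CPM in CD8+ T cells to 60.0 CPM in cDC2, and the samples of Macro alone spanned 15.4 to 83.1 CPM. The median of Ifitm6 was highest in Infl_Mono (265 CPM), neutrophils (179.9 CPM), Macro (168 CPM), cDC2 (160.1 CPM) and Monocyte_3 (160.0 CPM), whose ranges overlapped from one to the next. Its median was at most 53.6 CPM elsewhere, where single samples reached up to 68.5 CPM (cDC1). Mast cells were the type with the lowest Ifit level. Of all 43 mast cells, 0 held a UMI of any Ifit member, which at 3 counts allows up to 6.98% of cells with an Ifit UMI (Clopper-Pearson upper bound 8.22%) and sets no limit on cells that express the genes, while 12 cells held an Ifitm1 UMI and 20 cells, or 46.5%, held an Ifitm3 UMI. Shares of cells with an Ifitm UMI are therefore read only beside the levels.

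**Figure D1:**
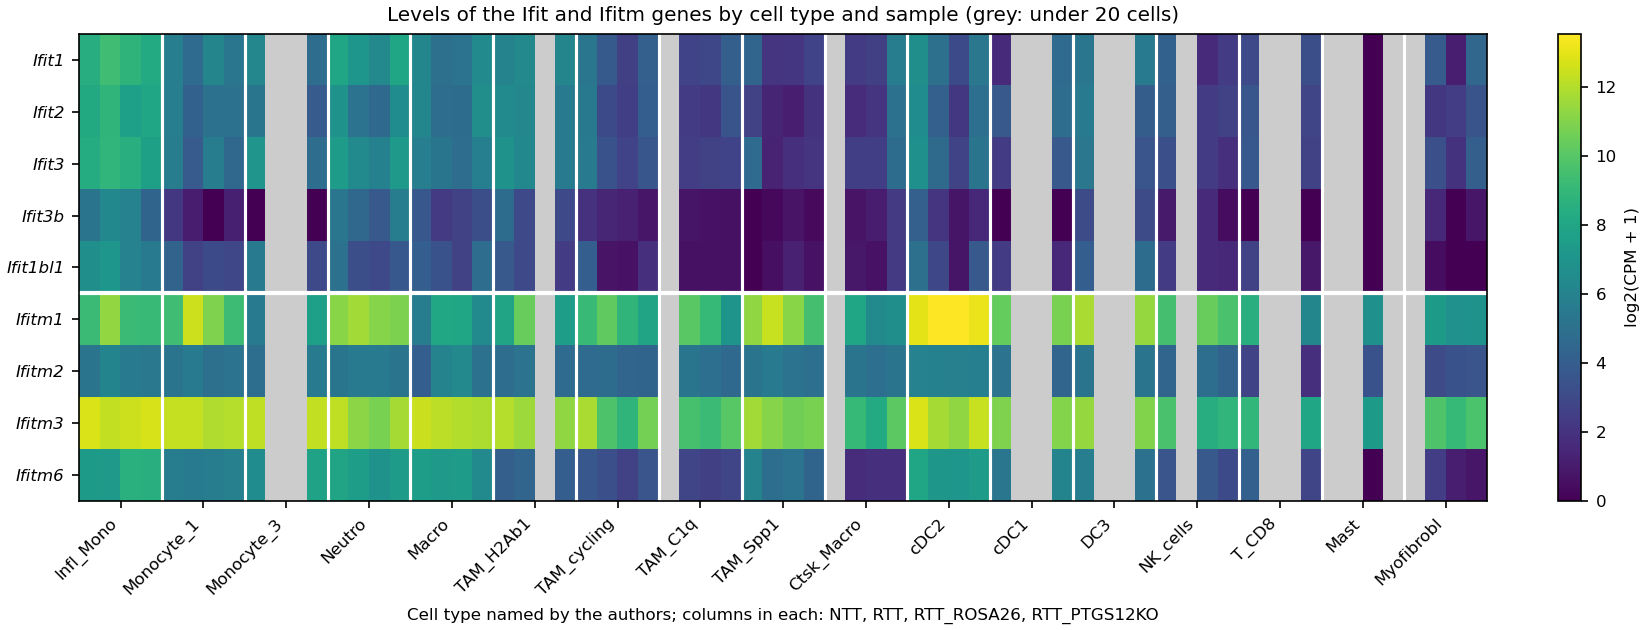
Heat map of the level of each of the 9 members in each cell type and sample, as log2(CPM + 1), with the samples in the order NTT, RTT, RTT_ROSA26 and RTT_PTGS12KO within a cell type and grey where a sample held fewer than 20 cells of the type. The Ifit rows are brightest in Infl_Mono, the Ifitm1 row in cDC2, and the Ifitm3 row is bright across the monocyte types.

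Where the transcripts came from followed from both level and cell number. Infl_Mono made up 19.5% of NTT cells and held 56.4% of the Ifit UMIs of that sample. In RTT it was 1.73% of cells and held 43.7% of Ifit UMIs, in RTT_ROSA26 1.26% and 22.2%, and in RTT_PTGS12KO 6.17% and 29.5%. For Ifitm1 the leading source in RTT was TAM_Spp1, which was 25.8% of cells and held 48.1% of Ifitm1 UMIs but 3.07% of Ifit UMIs. The cDC2 held 28.6% of Ifitm1 UMIs in NTT and 9.75% in RTT, with 28.7% for RTT_ROSA26 and 33.4% for RTT_PTGS12KO, from 2.18% to 4.21% of the cells.

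The comparison of NTT with RTT asks how immune cells of naive and resistant tumours differ after T cell transfer. In macrophages Ifit1, the sensor of incompletely capped RNA, had a level of 48.7 CPM for NTT and 7.06 for RTT, then 5.44 for RTT_ROSA26 and 19.6 for RTT_PTGS12KO. Ifit2, an RNA-binding relative, was 61.5, 4.73, 3.89 and 15 CPM in the same order, and Ifit3, a binding partner of the other IFIT proteins, was 79.0, 5.39, 5.11 and 11.6 CPM. NTT was the highest sample, RTT_PTGS12KO the next, and RTT and RTT_ROSA26 the lowest for each of these 3 genes. Ifit3b, the near copy of Ifit3, was 14.8, 0.829, 1.02 and 1.16 CPM, and Ifit1bl1, a relative of Ifit1, was 12.3, 0.614, 0.683 and 1.87 CPM.

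For NTT over RTT in macrophages, the log2 ratio was 2.79 (2.55 to 3.02) for Ifit1, 3.70 (3.47 to 3.93) for Ifit2, 3.87 (3.67 to 4.08) for Ifit3, 4.16 (3.65 to 4.65) for Ifit3b and 4.33 (3.75 to 4.89) for Ifit1bl1, which is 6.90-fold to 20.0-fold. A gene was called when it was past 2-fold and reached 10 CPM in its higher sample. By that rule all 5 Ifit members and Ifitm3 were higher, and Ifitm1 was lower, against a background of 5.92% of 7395 genes called higher and 4.21% called lower. The 5 Ifit members reached 10 CPM only through NTT, so their passing the floor and their differing are linked and the count is given as a description. Among the same genes, ranked from the highest ratio, Ifit1bl1 was 23rd, Ifit3b 28th, Ifit3 38th, Ifit2 45th and Ifit1 94th.

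Cell type makeup moved with this result. TAM_H2Ab1 was 62.3% of NTT macrophages and 0.936% of RTT macrophages, and its Ifit level was 312 CPM in NTT and 251 CPM in RTT, a log2 ratio of 0.31 (0.09 to 0.54). Its single members ran from -0.30 (-0.73 to 0.13) for Ifit1 to 1.92 (0.70 to 3.43) for Ifit3b. The summed Ifit ratio was 2.17 (1.93 to 2.40) in TAM_cycling and 2.85 (1.76 to 3.76) in TAM_Spp1, the latter from 10 UMIs in 20 NTT cells. With the cell types weighted equally, as the plain mean of the CPM of these types, the log2 ratio of the summed Ifit level fell from 3.54 to 0.81. The richest type, TAM_H2Ab1, weighs most in such a mean of levels, and TAM_C1q, with 12 NTT cells, is not in it. Summed over the class, more cells of an Ifit-rich type and more transcripts per cell cannot be told apart. The summed cDC2 markers (3 genes) were also higher in NTT macrophages, at 115 CPM against 11.6 (RTT), 16.1 (RTT_ROSA26) and 41.0 (RTT_PTGS12KO). The cDC1 markers (3 genes) were 92.3 CPM in NTT and 25.6 to 26.9 CPM elsewhere, the neutrophil markers (4 genes) 336 and 169 to 194 CPM, and the NK markers (5 genes) 27.8 and 4.70 to 9.46 CPM. The macrophage markers (10 genes) were highest in RTT at 38003 CPM, followed by RTT_ROSA26 at 29169, NTT at 18062 and RTT_PTGS12KO at 17539.7 CPM. The part of these lists in the result was not tested.

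Ifitm3, the endosomal member best known for blocking virus entry, was 3738 CPM in NTT macrophages and 1128 in those of RTT, and 653 with RTT_ROSA26 and 1549.6 with RTT_PTGS12KO. Its order over the samples was that of Ifit1 and Ifit2. Ifitm1, found mainly at the plasma membrane, was 514 CPM in NTT and 2084 CPM in RTT macrophages, then 713 for RTT_ROSA26 and 289.8 for RTT_PTGS12KO. RTT was the highest sample for Ifitm1, and RTT_PTGS12KO, not NTT, the lowest. The log2 ratio of NTT over RTT was 1.73 (1.704 to 1.753) for Ifitm3 and -2.02 (-2.08 to -1.96) for Ifitm1, a difference between the ratios of these genes of -3.75 (-3.82 to -3.68). The makeup of the class moved with these values too, since TAM_Spp1, rich in Ifitm1, was 6.49% of NTT and 30.5% of RTT macrophages. Within types the ratios kept their direction, at 0.46 in TAM_H2Ab1, 0.56 in TAM_Spp1 and 2.07 in TAM_cycling for Ifitm3, and at -2.45, -1.10 and -1.03 for Ifitm1. With the cell types weighted equally they were 0.85 for Ifitm3, no longer past 2-fold, and -1.24 for Ifitm1. Ifitm2 was 28.0, 37.8, 26.5 and 23.9 CPM, with a ratio of -0.43 (-0.71 to -0.16), and Ifitm6 was 18.9, 11.9, 9.16 and 11.2 CPM, with a ratio of 0.67 (0.31 to 1.00). Since the members of the Ifitm family moved apart, the summed Ifitm level differed by only 0.40 (0.38 to 0.42), and the Ifit ratio exceeded the Ifitm ratio by 3.14 (3.02 to 3.26).

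**Figure D2:**
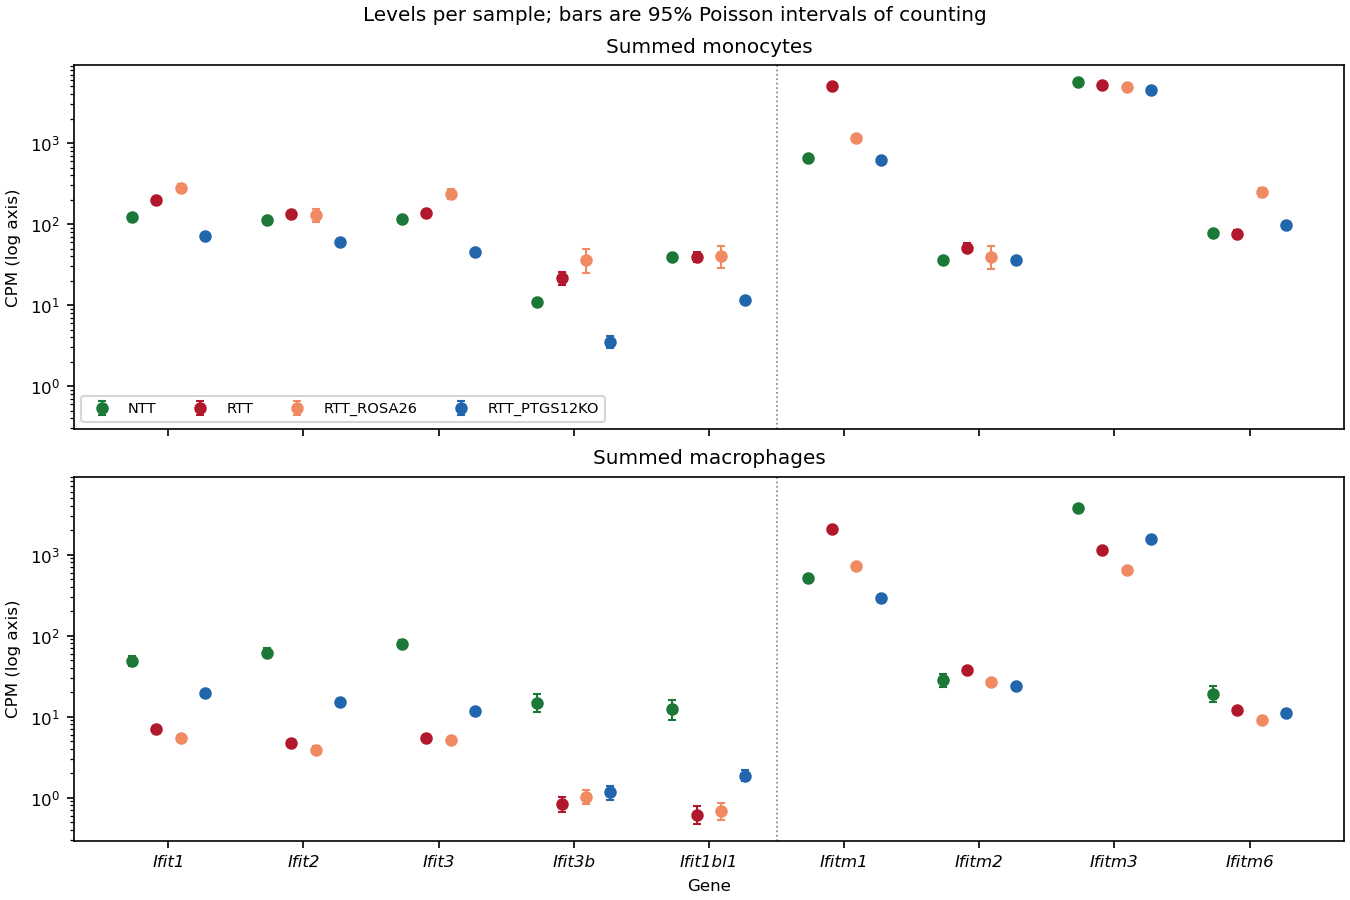
Level of each member in CPM (log axis) in monocytes and macrophages of the 4 samples, with 1 point per sample and bars for the 95% Poisson interval of its UMI count. In macrophages the points of Ifit1, Ifit2, Ifit3 and Ifitm3 are highest in NTT, whereas that of Ifitm1 is highest in RTT at 2084 CPM.

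In monocytes the same comparison gave a different picture for the Ifit members. Ifit1 was 123 CPM for NTT, 197 for RTT, 282 for RTT_ROSA26 and 71.3 for RTT_PTGS12KO. Ifit2 was 112, 133, 129 and 60.3 CPM, and Ifit3 was 117, 137, 236 and 45.4 CPM. RTT_PTGS12KO was the lowest sample for each, and RTT_ROSA26 the highest for Ifit1 and Ifit3. Ifit3b was 10.9, 21.4, 35.9 and 3.5 CPM, and Ifit1bl1 was 39.5, 39.6, 39.9 and 11.5 CPM. For NTT over RTT the log2 ratios were -0.68 (-0.78 to -0.58) for Ifit1, -0.25 (-0.36 to -0.13) for Ifit2, -0.24 (-0.35 to -0.12) for Ifit3, -0.97 (-1.28 to -0.66) for Ifit3b and -0.00 (-0.21 to 0.22) for Ifit1bl1. None was past 2-fold, and across the 3 droplet loads the Ifit1 ratio ran from -0.997 to 0.202.

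The pooled monocyte value hid opposite directions within the class. In Monocyte_1, the most numerous monocyte type of both samples, the summed Ifit level was 184 CPM in NTT and 63.4 CPM in RTT, a log2 ratio of 1.54 (1.35 to 1.73). In Infl_Mono it was 1135 CPM in NTT and 1853 CPM in RTT, a ratio of -0.71 (-0.77 to -0.64). The Ifit transcripts of RTT monocytes were held by few cells: 38.7% of them had an Ifit UMI against 63.8% in NTT, and 25.6% against 44.6% after each cell was thinned to 3000 UMIs. The 10% of RTT monocytes richest in Ifit UMIs held 88.4% of them, against 56.3% in NTT. With classes assigned by marker UMIs in place of the authors' names the Ifit ratio turned to 4.15.

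Ifitm1 was the member that stood out in monocytes. It was 653 CPM for NTT, 5039 for RTT, 1142 for RTT_ROSA26 and 623 for RTT_PTGS12KO, so that RTT lay far above the other 3 samples. The log2 ratio of NTT over RTT was -2.95 (-2.97 to -2.92), or 7.71-fold lower, and lay between -3.14 and -2.73 in the 3 loads. It was the 11th lowest of 6733 genes. Ifitm1 was the only member called in this comparison, against 2.02% of genes called higher and 1.93% called lower. Of RTT monocytes, 92.5% held an Ifitm1 UMI, against 55.8% in NTT (84.8% against 42.1% after thinning). Ifitm3 was 5693, 5229, 4984 and 4567 CPM in the 4 samples, with a ratio of 0.12 (0.10 to 0.14). Ifitm2 was 36.2, 51.2, 38.9 and 36.1 CPM with a ratio of -0.50 (-0.69 to -0.30), and Ifitm6 was 76.8, 76.5, 248 and 96.8 CPM with a ratio of 0.01 (-0.15 to 0.16). The summed macrophage markers (10 genes) were also higher in RTT monocytes, at 15959 CPM against 5562 (NTT), 10334 (RTT_ROSA26) and 6674 (RTT_PTGS12KO), and their part in the Ifitm1 difference was not tested.

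The knockout comparison, RTT_PTGS12KO over RTT_ROSA26, asks what changes in the immune cells when the resistant cancer cells lack the cyclooxygenases. In macrophages the log2 ratio was 1.85 (1.71 to 1.99) for Ifit1, 1.95 (1.79 to 2.12) for Ifit2, 1.18 (1.03 to 1.34) for Ifit3 and 1.25 (1.23 to 1.26) for Ifitm3, which is 2.27-fold to 3.87-fold. Ifitm1 moved the other way, with a ratio of -1.30 (-1.32 to -1.28), or 2.46-fold lower. Of the 7 members with at least 10 CPM, these 4 were called higher and Ifitm1 was called lower, against 2.62% of 7324 genes called higher and 1.17% called lower. Ifit1, Ifit2 and Ifit3 reached 10 CPM only through RTT_PTGS12KO. Ifit3b (0.18) and Ifit1bl1 (1.45) stayed under 10 CPM in both samples. Ifitm2 had a ratio of -0.15 (-0.24 to -0.07) and Ifitm6 of 0.29 (0.16 to 0.42). Ifitm1 was the 33rd lowest of the 7324 genes.

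The share of macrophages with an Ifit UMI was 23.6% in RTT_PTGS12KO and 8.29% in RTT_ROSA26, and 7.33% and 2.35% after thinning. Ifitm1 was found in 51.6% and 59.5% of cells (23.3% and 37.0% after thinning), and Ifitm3 in 98.4% and 93.4% (88.6% and 67.8%). TAM_H2Ab1 was 6.99% of RTT_PTGS12KO and 0.184% of RTT_ROSA26 macrophages (364 and 11 cells), and it held 1041 of the 4427 Ifit UMIs of the knockout macrophages. With the cell types weighted equally the Ifitm3 ratio was 0.93, no longer past 2-fold. Within the other cell types the direction was shared: the Ifit ratio was 0.99 (0.83 to 1.15) in TAM_C1q, 1.45 (1.32 to 1.57) in TAM_cycling, 0.42 (0.09 to 0.75) in TAM_Spp1 and 3.04 (2.75 to 3.34) in Ctsk_Macro. Ifitm1 was lower in TAM_C1q (-2.06), TAM_Spp1 (-1.60) and TAM_cycling (-0.98) and higher in Ctsk_Macro (0.34, 0.16 to 0.52), where its level was 84.4 CPM in RTT_ROSA26 and 107 CPM in RTT_PTGS12KO. The Ifit ratio varied between the 3 loads from 0.84 to 2.18, and the Ifitm1 ratio from -1.38 to -1.14. For single members it ran from 1.32 to 2.23 for Ifit1, 1.165 to 2.64 for Ifit2 and 0.15 to 1.89 for Ifit3. In TAM_C1q the Ifit3 ratio was 0.10 (-0.23 to 0.43), with levels under 10 CPM in both samples.

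In monocytes of this comparison all 5 Ifit members were lower in RTT_PTGS12KO. The log2 ratios were -1.99 (-2.16 to -1.81) for Ifit1, -1.10 (-1.35 to -0.83) for Ifit2, -2.38 (-2.58 to -2.18) for Ifit3, -3.36 (-3.89 to -2.79) for Ifit3b and -1.79 (-2.26 to -1.29) for Ifit1bl1. Together with Ifitm6, at -1.36 (-1.54 to -1.17), these made 6 members called lower and 0 called higher, against 2.82% of 6726 genes called lower and 2.62% called higher. RTT_ROSA26 held only 144 monocytes, of which 59.7% were Infl_Mono, against 15.8% of 4015 in RTT_PTGS12KO, and 78.8% of its Ifit UMIs were in 10% of its cells. The Ifit ratio was -0.44 (-0.56 to -0.32) within Infl_Mono and -0.66 (-1.003 to -0.284) within Monocyte_1, neither past 2-fold, and -0.47 with the cell types weighted equally. Of the single members, Ifitm6 was -0.07 (-0.27 to 0.14) in Infl_Mono and 0.22 (-0.40 to 0.92) in Monocyte_1, and Ifit2 was 0.37 (0.09 to 0.66) and -0.03 (-0.78 to 0.85), so neither was past 2-fold within a type. The same held for Ifit1 (-0.53 and -0.845) and Ifit1bl1 (-0.37 and -0.20). Ifit3 was past 2-fold in Monocyte_1 (-1.14) and Ifit3b in Infl_Mono (-1.68). When cells were assigned by their marker UMIs in place of the authors' names, which put 729 RTT_ROSA26 cells among monocytes, the summed Ifit ratio turned to 3.17.

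Of the other Ifitm members, Ifitm1 had a ratio of -0.87 (-0.96 to -0.79), with -1.60 (-1.71 to -1.50) in Monocyte_1, -0.11 (-0.27 to 0.06) in Infl_Mono, and -1.40 to 0.08 over the 3 loads. Ifitm3 had a ratio of -0.13 (-0.17 to -0.09) and Ifitm2 of -0.11 (-0.57 to 0.39). The Ifit ratio minus the Ifitm ratio was 1.19 (1.11 to 1.27) in macrophages and -1.65 in monocytes.

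RTT_ROSA26 was compared with RTT because both resistant lines carry Ptgs1 and Ptgs2, which shows how far 2 tumours of like kind lay apart. It shares RTT with the first comparison and RTT_ROSA26 with the second. In macrophages Ifitm1 differed by -1.55 (-1.56 to -1.54), or 2.92-fold lower in RTT_ROSA26, and was the 23rd lowest of 7282 genes. It was the 1 member called lower of 4 with at least 10 CPM, and 0 were called higher, against 0.893% and 0.796% of genes. Ifitm3 differed by -0.79, or 1.73-fold, Ifitm2 by -0.51 and Ifitm6 by -0.38. The 5 Ifit members stayed under 10 CPM in both samples, with ratios between -0.38 and 0.31. The Ifitm1 difference between these controls was thus larger than the -1.30 of the knockout comparison, whereas those of Ifit1, Ifit2 and Ifit3 were smaller.

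In monocytes Ifitm1 was 4.41-fold lower in RTT_ROSA26, at -2.14 (-2.23 to -2.06), and Ifitm6 was 3.25-fold higher, at 1.7 (1.46 to 1.94). These were the members called, 1 in each direction, against 3.1% of 6784 genes called lower and 2.52% called higher. Infl_Mono made up 59.7% of the monocytes of RTT_ROSA26 and 26.4% of those of RTT. Within types Ifitm6 was 1.26 (0.98 to 1.54) in Infl_Mono but 0.11 (-0.62 to 0.77) in Monocyte_1, and over the 3 loads it ran from 0.78 to 2.13, whereas Ifitm1 was -2.11 and -1.61. The Ifit members ranged from -0.05 (Ifit2) to 0.78 (Ifit3, 0.56 to 1.00). These class values cover opposite directions, since the summed Ifit ratio was -0.70 (-0.82 to -0.57) in Infl_Mono, with Ifit2 at -1.21 and Ifit1bl1 at -1.095, and 1.36 (0.94 to 1.76) in Monocyte_1, with Ifit1 at 1.46 and Ifit3 at 1.89. The Monocyte_1 values rest on 54 RTT_ROSA26 cells, which held 29 UMIs of Ifit1 and 21 of Ifit3. With the cell types weighted equally the summed Ifit ratio was -0.55, from a mean of levels in which Infl_Mono, the richer type, weighs most. Ifitm3 differed by -0.07 (-0.11 to -0.03) and Ifitm2 by -0.40 (-0.92 to 0.10).

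**Figure D3:**
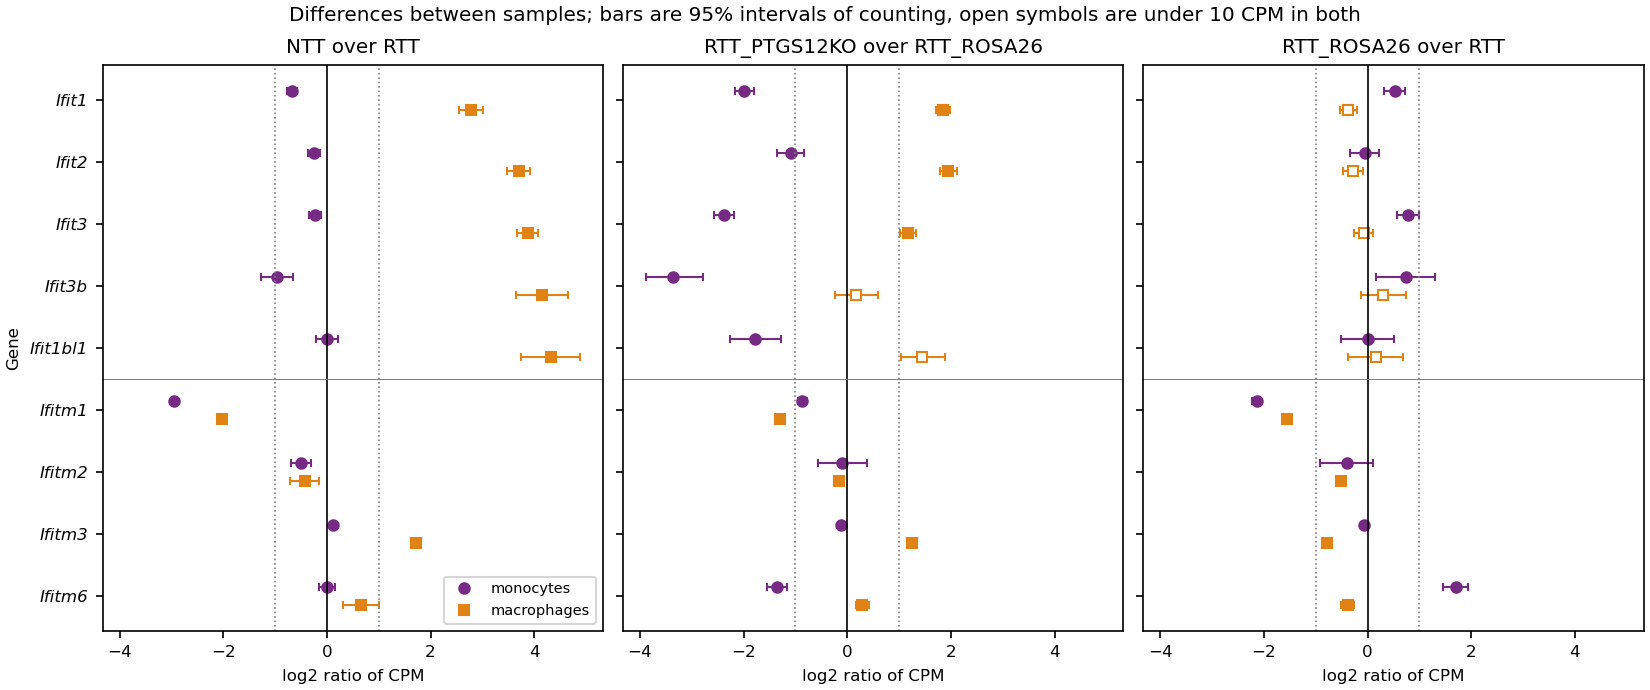
Log2 ratio of CPM for each member in the 3 comparisons, in monocytes and macrophages, with bars for the 95% counting interval, and dotted lines at 2-fold and open symbols for values under 10 CPM in both samples. Ifitm1 lies left of 0 in every panel, with a lowest value of -2.95 in monocytes for NTT over RTT, while the Ifit members lie right of 0 in macrophages for NTT over RTT.

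Across single cell types with at least 20 cells in both samples, the directions of Ifitm1 and Ifitm3 were counted. For NTT over RTT, Ifitm1 was lower in 8 of 8 cell types, from -3.14 in Monocyte_1 to -0.52 in neutrophils, and Ifitm3 was higher in 7 of 8, up to 2.07 in TAM_cycling. For RTT_PTGS12KO over RTT_ROSA26, Ifitm1 was lower in 9 of 11 and Ifitm3 higher in 10 of 11. For RTT_ROSA26 over RTT, whose lines both carry Ptgs1 and Ptgs2, Ifitm1 was lower in 10 of 10, with 5 past 2-fold, and Ifitm3 was lower in 9 of 10, with 0 past 2-fold. The ratio of Ifitm1 lay below that of Ifitm3 in 8 of 8 and 11 of 11 cell types, and in 7 of 10 for RTT_ROSA26 over RTT. The Ifit sum was higher in 7 of 8 cell types of the first comparison and 8 of 11 of the second, and in RTT_ROSA26 over RTT it was higher in 3 and lower in 6 of 9. The cell types of a comparison come from the same 2 libraries and are not replicates.

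The types that carry most of each gene show the size of the split. In Monocyte_1, Ifitm1 was 669 CPM for NTT, 5895 for RTT, 1926 for RTT_ROSA26 and 634 for RTT_PTGS12KO, and Ifitm3 was 5279, 5281, 3912 and 4259 CPM. The Ifitm1 level of RTT thus exceeded its Ifitm3 level, and in the other 3 samples it did not. In TAM_Spp1, Ifitm1 was 2548, 5444, 2285 and 754 CPM, and Ifitm3 was 3249, 2197, 1575 and 1786 CPM. In TAM_cycling, Ifitm1 was 585, 1194, 465 and 236 CPM and Ifitm3 was 3584, 856, 461 and 1659.7 CPM, so that NTT and RTT_PTGS12KO held several times more Ifitm3 than Ifitm1 and RTT_ROSA26 held about as much of each. The cDC2 kept the highest Ifitm1 of any type in every sample, at 8092, 12011, 11648 and 8981 CPM, while their Ifitm3 was 7008, 3403, 2555 and 5465 CPM and their Ifit sum 362, 83.2, 18.2 and 122 CPM. In cDC2 the samples high in Ifit were also those high in Ifitm3, and the Ifitm1 ranges of the samples spanned less than 2-fold.

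**Figure D4:**
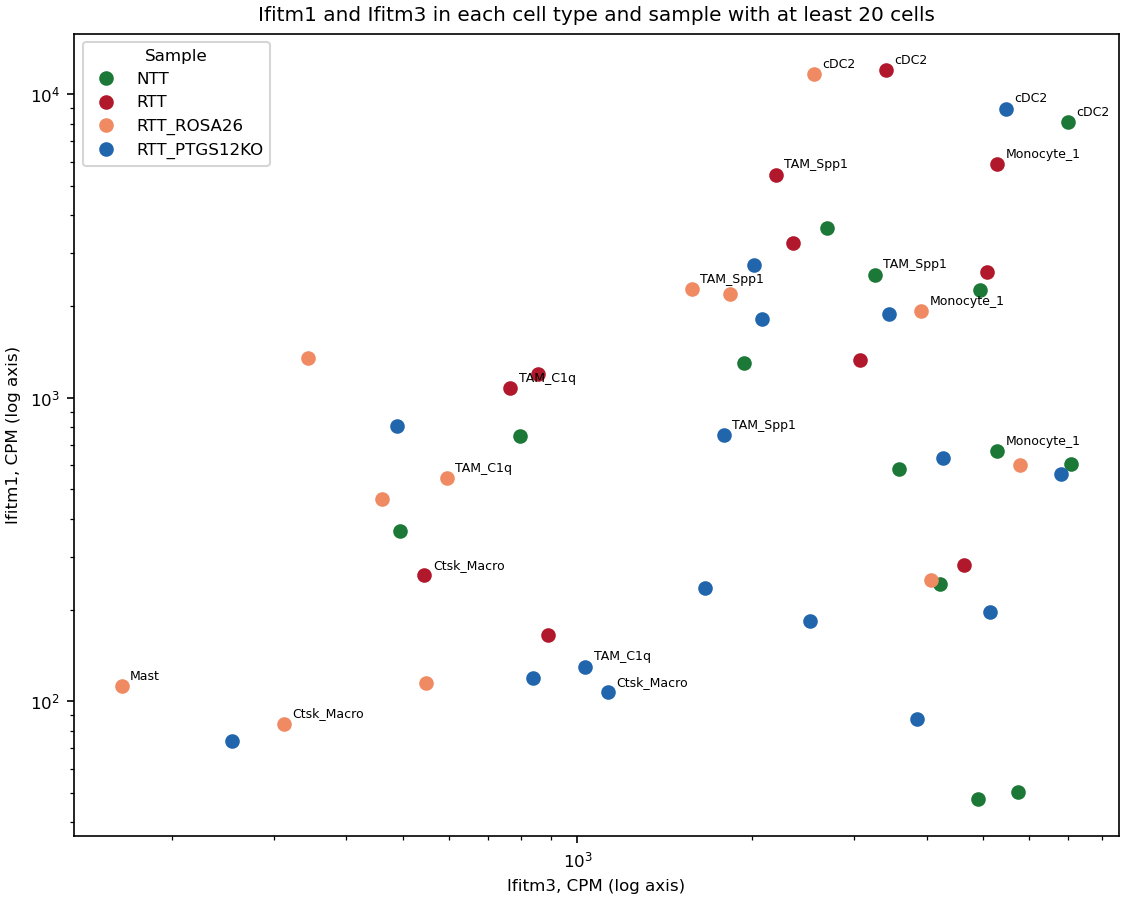
Level of Ifitm1 against Ifitm3 in CPM (log axes), with 1 point per cell type and sample and colours for samples. The cDC2 points lie at the top, and the RTT points of Monocyte_1 and TAM_Spp1, at 5895 and 5444 CPM of Ifitm1, lie above those of the other samples of the same type.

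Single cells with and without an Ifit UMI were compared within a cell type and sample. In TAM_cycling of RTT_PTGS12KO, Ifitm3 was 2108 CPM (2085 to 2131) in the 596 cells with an Ifit UMI and 1394 CPM (1379.5 to 1408) in the 1236 cells without. In TAM_C1q of RTT it was 1174 and 713 CPM, and in cDC2 of RTT 5218 and 2924 CPM. Over 28 pairs of cell type and sample it was higher in cells with an Ifit UMI in 23 and lower in 5. Infl_Mono, the Ifit leader, went the other way in 3 of its 4 samples, with 4509.7 and 7249 CPM in RTT, 4767 and 6829.9 CPM in RTT_ROSA26, and 6638 and 7136 CPM in RTT_PTGS12KO. In Monocyte_1 Ifitm3 was nearly the same with and without an Ifit UMI in NTT (5329.8 and 5199 CPM), RTT (5216 and 5309 CPM) and RTT_ROSA26 (4003 and 3833 CPM). In Monocyte_1 of RTT_PTGS12KO it was 4487 CPM (4455 to 4519) with and 4066 CPM (4038 to 4094) without. Ifitm1 was higher in cells with an Ifit UMI in 15 of the 28 pairs and lower in 12. Both genes were higher in 14 pairs and both lower in 4, the former including TAM_Spp1 of RTT_ROSA26, where it was 3129 and 2234 CPM. It was 1012 and 1083 CPM in TAM_C1q of RTT, 12086 and 11991 CPM in cDC2 of RTT, and in Monocyte_1 of RTT 4174 CPM (4053 to 4296) in cells with an Ifit UMI and 6639 CPM (6539 to 6740.2) in those without. Cells with an Ifit UMI were deeper in 26 of the 28 pairs, such as 16317 against 12973 UMIs in TAM_C1q of RTT, and the part of depth was not tested.

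The levels of the members were correlated over 42 sums of 1 cell type in 1 sample with at least 50 cells, as a description, since these points share samples, loads and cell types. On log2(CPM + 1), Pearson's r was 0.82 to 0.97 for the 10 pairs of Ifit members, 0.41 to 0.84 for the 6 pairs of Ifitm members and 0.06 to 0.77 for the 20 pairs between families. The summed Ifit level correlated at 0.77 with Ifitm3, 0.71 with Ifitm6, 0.40 with Ifitm2 and 0.14 with Ifitm1. The 5 other genes most like the Ifit sum were Rsad2 (0.94), Oasl1 (0.93), Cmpk2 (0.92), Oas3 (0.92) and Isg15 (0.92), all known interferon-stimulated genes. Those most like the Ifitm sum were Htr7 (0.90), Napsa (0.87), Lsr (0.87), Plbd1 (0.86) and Rnase6 (0.86). The genes most like Ifitm1 and Ifitm3 alone were named after their values were seen and were Il1r2 (0.91), the decoy receptor for interleukin-1, and Rnase6 (0.90).

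**Figure D5:**
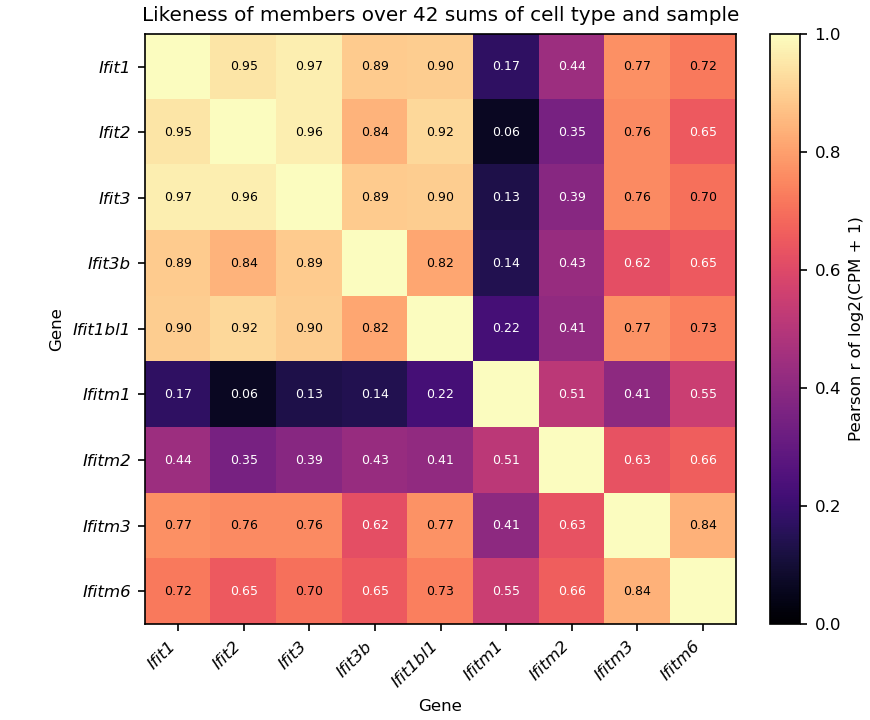
Pearson's r between the log2(CPM + 1) levels of the 9 members over 42 sums of 1 cell type in 1 sample, as a colour scale. The Ifit block reaches 0.82 to 0.97, and the Ifitm1 row is darkest, for low r, against the Ifit members.

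Interferon transcripts other than those of Ifng were rare in these CD45-sorted cells. Cancer cells, from which the study measured interferon beta in culture, are meant to be removed by that sort and are not covered. Ifnb1, the type I interferon beta gene, had 187 UMIs in 42 of 33368 cells, with 6 UMIs for NTT, 55 for RTT, 63 for RTT_ROSA26 and 63 for RTT_PTGS12KO. In RTT_ROSA26 and RTT most came from single cells: 52 of the RTT_ROSA26 UMIs lay in 1 Infl_Mono cell, which also held 45 Ifit UMIs, and 45 of the RTT UMIs in 1 TAM_C1q cell with 10 Ifit UMIs. The 63 UMIs of RTT_PTGS12KO lay in 22 cells, with at most 12 in 1 cell, and the 6 of NTT in 5 cells. Ifna1, Ifna2, Ifna4, Ifna5, Ifnl2 and Ifnl3 had 0 UMIs. Ifng, made by T and NK cells, was 64.6 CPM over all cells of NTT and 72.4 CPM in RTT_PTGS12KO, against 0.608 CPM in RTT and 0.653 CPM in RTT_ROSA26. The number of cells that make it also differed: NTT held 93 CD8+ T cells and 709 NK cells and RTT_PTGS12KO 45 and 306, against 1 and 13 in RTT and 2 and 26 in RTT_ROSA26. The CD8+ T cells held 3397 of the 4482 Ifng UMIs of NTT and 10063 of the 10626 of RTT_PTGS12KO. Within CD8+ T cells Ifng was 2177 CPM in NTT and 8697 CPM in RTT_PTGS12KO, and RTT and RTT_ROSA26 held too few of these cells for a level.

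Receptors and signal carriers were listed next. In macrophages Ifnar1 was 57.1, 65.2, 67.0 and 58.6 CPM in NTT, RTT, RTT_ROSA26 and RTT_PTGS12KO, Ifnar2 was 199.5, 180.0, 179 and 158 CPM, and Ifngr1 was 110.5, 213, 152 and 108 CPM. The receptors thus varied little or were higher in RTT. Stat2, a part of the ISRE-binding complex, was 81.2, 15.1, 9.96 and 28.2 CPM. Irf9 was 47.7, 33.7, 25.5 and 37.2 CPM, Irf7 was 371, 19, 15 and 37.5 CPM, and Irf1, an early interferon-gamma target, was 285, 96.8, 28.2 and 227 CPM. The order of the samples for Stat2, Irf7 and Irf1 was NTT, RTT_PTGS12KO, RTT, RTT_ROSA26, the same as for Ifit1 and Ifitm3. In monocytes Irf7, at 531, 205, 225 and 198 CPM, was the 1 gene of the 15 on this list called higher for NTT over RTT, and 0 were lower, where 2.02% and 1.93% of all genes were. The list median was 0.47. Ifngr1 had the lowest ratio there, at -0.71, and was 122, 199.6, 187 and 107 CPM.

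Other interferon targets were then counted by the same 2-fold rule. For NTT over RTT in macrophages, 19 of 19 measured type I interferon targets were called higher, where 5.92% of all genes were (median log2 ratio 2.71, from Trim30a at 1.20 to Ifi44 at 6.04) and 15 of 15 interferon-gamma targets (median 3.05, from Gbp2 at 2.02 to Gbp2b at 6.30), beside a median of 0.00 over all genes. Only 13 of the 19 and 10 of the 15 reached 10 CPM in both samples, and the others passed that floor only through NTT, so these counts are descriptions. For RTT_PTGS12KO over RTT_ROSA26, 9 of 14 type I targets were higher and 0 lower, where 2.62% and 1.17% of all genes were (median 1.15, from Bst2 at 0.09 to Cxcl10 at 3.48), and 15 of 15 interferon-gamma targets were higher (median 3.09, from H2-Ab1 at 2.03 to Gbp2b at 5.07), beside -0.09 over all genes. Of these, 12 of the 14 and 9 of the 15 reached 10 CPM in both samples. For RTT_ROSA26 over RTT, 0 of 13 type I targets were called, where 0.796% of all genes were higher and 0.893% lower (median -0.31, from Oasl2 at -0.66 to Bst2 at 0.06), and 3 of 10 interferon-gamma targets were lower (median -0.88, from Iigp1 at -1.88 to H2-Ab1 at -0.48), beside 0.07 over all genes.

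In monocytes, where all measured genes of both lists reached 10 CPM in both samples, the counts of the lists differed. For NTT over RTT, 6 of 19 type I targets were higher and 0 lower, where 2.02% and 1.93% of all genes were (median 0.75, from Cmpk2 at -0.68 to Ifi44 at 1.85), with a median of 0.04 over all genes, whereas 0 of the 5 Ifit members were called. In the same comparison 3 of 15 interferon-gamma targets were higher and 0 lower (median 0.50, from Gbp2 at -0.47 to Gbp2b at 2.04). For RTT_PTGS12KO over RTT_ROSA26, 6 of 19 type I targets were lower and 0 higher, where 2.82% and 2.62% of all genes were (median -0.43, from Cmpk2 at -2.15 to Dhx58 at 0.15), while 8 of 15 interferon-gamma targets were higher and 0 lower (median 1.24, from Gbp5 at -0.09 to Nos2 at 3.19), beside -0.00 over all genes. For RTT_ROSA26 over RTT, 3 of 19 type I targets were higher, where 2.52% of all genes were (median 0.33, from Ifi44 at -0.54 to Cxcl10 at 1.21), and, where 3.1% of all genes were lower, 7 of 15 interferon-gamma targets lower (median -0.66, from Nos2 at -2.47 to Gbp5 at 0.06), beside 0.01 over all genes. The other genes named Ifit or Ifitm that the matrix holds, Ifit1bl2, Ifitm5, Ifitm7 and Ifitm10, stayed under 10 CPM in both classes of every sample.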

How the data were processed

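Tumours were digested, CD45+ live cells were sorted, and the 4 samples were tagged with oligos, pooled and sequenced from the 3′ end. The authors deposited raw UMI counts per gene and cell (32285 genes, 33368 cells) with the sample and cell type of each cell, and the study's methods name Cell Ranger, an mm10 reference, Seurat 4.3.0 and a cell filter that all deposited cells met (more than 1000 genes, mitochondrial UMIs below 15% and ribosomal ones below 40%). No doublet caller was run. UMI counts were summed per sample and cell type or class, scaled to CPM by the same cells' total, and set against each other as log2 CPM ratios without a pseudocount, each with an exact 95% interval (conditional binomial, for a level Poisson, for a share Clopper-Pearson). Depth ran from 69332486 to 146829369 UMIs per sample. Cell types with fewer than 20 cells in a sample were left out of comparisons. Steps were tested on simulated data.

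The members and lists were chosen with earlier results of these data known. Named were all 9 members, the 5 genes most like each family sum, fixed interferon receptors, signal carriers and ligands, and the highest and lowest gene of each list, of which 1 signal carrier is not reported here. Alternatives were CPM + 10, CPM + 1 for single members, TMM factors (edgeR 4.0.16, R 4.3.3), cell types weighted equally (the plain mean CPM of types with at least 20 cells in both samples), classes by marker UMIs, a stricter cell filter (1500 genes, mitochondrial UMIs below 10%), the largest family member left out and, chosen after seeing the data, Monocyte_1 alone. Promoters came from RefSeq (GRCm38.p6), with all 9 members matched, and gene models from GENCODE. Analyses used Python 3.11.15, numpy 2.4.6, scipy 1.17.1, pandas 2.3.3 and matplotlib 3.10.9.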

Additional observations from a re-analysis of the deposited data

Results flagged for a closer look

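Members whose log2 ratio lay on opposite sides of 0 in monocytes and macrophages of the same comparison, with counting intervals that excluded 0 in both classes, were looked at again. With 1 sample per group, the difference between the classes was not tested.

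For NTT over RTT, Ifit1 was -0.68 in monocytes and 2.79 in macrophages, Ifit2 was -0.25 and 3.70, Ifit3 was -0.24 and 3.87, and Ifit3b was -0.97 and 4.16. The summed Ifit level was -0.39 in monocytes and 3.54 in macrophages, and the summed Ifitm level was -0.69 and 0.40. Within the class, Monocyte_1 had an Ifit ratio of 1.54, on the side of the macrophages.

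For RTT_PTGS12KO over RTT_ROSA26, Ifit1 was -1.99 in monocytes and 1.85 in macrophages, Ifit2 was -1.10 and 1.95, Ifit3 was -2.38 and 1.18, and Ifit1bl1 was -1.79 and 1.45, the last under 10 CPM in macrophages. Ifitm3 was -0.13 and 1.25, and Ifitm6 was -1.36 and 0.29. The summed Ifit level was -1.91 and 1.61, and the summed Ifitm level was -0.27 and 0.42. The RTT_ROSA26 value rests on 144 monocytes.

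For RTT_ROSA26 over RTT, Ifit1 was 0.52 in monocytes and -0.38 in macrophages, Ifitm6 was 1.7 and -0.38, and the summed Ifit level was 0.45 and -0.21.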

How the results depend on the processing

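No paired analysis was possible because a group holds only 1 sample, so samples could not be left out either. Ifitm1 was lower in all 3 comparisons and both classes under each alternative run, from -3.14 to -2.59 for NTT over RTT in monocytes and from -1.46 to -0.96 for RTT_PTGS12KO over RTT_ROSA26 in macrophages. Assignment by marker UMIs changed the cells compared, from 308 to 3675 NTT macrophages and from 144 to 729 RTT_ROSA26 monocytes. The cause of the other changes was not tested.

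The summed Ifit ratio in macrophages was 3.54 for NTT over RTT, against 2.98 with CPM + 10, 0.81 with cell types weighted equally, 2.89 by marker UMIs and 3.86 without Ifit1. For RTT_PTGS12KO over RTT_ROSA26 it was 1.61, against 1.18 with CPM + 10, 1.71 with TMM, 1.87 with equal weights, 1.698 by markers and 1.47 without Ifit1. For RTT_ROSA26 over RTT it was -0.21, against -0.91 by markers. In monocytes it was -0.39 for NTT over RTT, against -0.54 with equal weights, 4.15 by markers, -0.25 without Ifit1 and 1.54 in Monocyte_1. For RTT_PTGS12KO over RTT_ROSA26 it was -1.91, against -0.47 with equal weights, -2.06 with the stricter filter, -0.66 in Monocyte_1 and 3.17 by markers, a reversal. For RTT_ROSA26 over RTT it was 0.45, against -0.55 with equal weights, -0.37 by markers and 1.36 in Monocyte_1.

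The summed Ifitm ratio mixed members that moved apart, and without Ifitm3, its largest member, it was -1.93 in place of 0.40 for NTT over RTT in macrophages, -1.21 in place of 0.42 for RTT_PTGS12KO over RTT_ROSA26 and -1.51 in place of -1.22 for RTT_ROSA26 over RTT. In monocytes these values were -2.75 in place of -0.69, -0.92 in place of -0.27 and -1.85 in place of -0.70. With equal weights the Ifitm ratio was 0.035, 0.11 and -0.95 in macrophages and -0.46, 0.001 and -0.59 in monocytes, in the same order of comparisons. By markers it was 0.74, 0.84 and -1.32 in macrophages and 0.30, 1.40 and -1.45 in monocytes. With TMM it was 0.37, 0.52 and -1.32 in macrophages, and -0.66 for NTT over RTT and -0.19 for the knockout comparison in monocytes. With the stricter filter it was 0.45 for the knockout comparison and -1.24 for RTT_ROSA26 over RTT in macrophages, and -0.21 and -0.75 in monocytes. In Monocyte_1 it was -0.90 for NTT over RTT and -0.93 for RTT_ROSA26 over RTT.

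Of 349 values of single members under the alternatives, 42 had the opposite sign of the main value, 9 of them for ratios past 2-fold and 33 for smaller ones. Those past 2-fold were as follows. In monocytes of the knockout comparison, assignment by markers gave 2.86 for Ifit1, 4.00 for Ifit2, 3.21 for Ifit3, 1.77 for Ifit3b, 2.57 for Ifit1bl1 and 1.39 for Ifitm6, equal weights gave 0.32 for Ifit2, and Monocyte_1 gave 0.22 for Ifitm6. By markers Ifitm6 was -0.006 for RTT_ROSA26 over RTT in monocytes. Of the smaller ones, Ifit1 for NTT over RTT in monocytes was 3.86 by markers and 1.12 in Monocyte_1, in place of -0.68.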
